A study of Mus musculus with 23 samples.

Results

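Heat-shock chaperones are described here through 10 genes. They encode the HSP70 proteins Hspa8, Hspa1a and Hspa1b, the HSP110 protein Hsph1, the J-domain protein Dnajb1, the cytosolic HSP90 proteins Hsp90aa1 and Hsp90ab1, the small heat-shock protein Hspb1 and the mitochondrial chaperonin proteins Hspd1 (HSP60) and Hspe1 (HSP10). The genes were chosen on measured values: heat-shock genes were higher in the libraries with forced Notch activity (NICD) than in the others, and no other group shares the batch of the NICD libraries. All values of the members in comparisons with NICD libraries are therefore given as a description, with no test. The 10 members were found by symbol among 50123 genes, and all 10 were among the 19140 genes that passed the filter on low counts. The lowest count of any member in any library was 10, for Hspa1b.

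Chaperones bind unfolded proteins and help them to reach or regain their folded shape. HSP70 proteins do this in cycles of ATP hydrolysis that J-domain proteins such as Dnajb1 stimulate and that exchange factors such as Hsph1 reset, and HSP90 proteins act on clients such as kinases and steroid receptors that HSP70 hands over. Hspa8 and Hsp90ab1 are made by most cells at all times, whereas Hspa1a and Hspa1b are the classical inducible HSP70 genes, which the transcription factor HSF1 switches on upon heat, oxidative stress and other damage to proteins.

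The data are RNA-seq counts from 23 libraries of thymic epithelial cells (TECs), the stromal cells on which T cells develop, each made from 100 cells sorted from fetal mouse thymus. PLET1 is a surface protein of fetal TEC progenitors, and cells positive (PLET1+) or negative (PLET1-) for it were sorted apart at E14.5. The Rbpj cross gave 6 groups of 3 libraries each: PLET1+ cells at E12.5, PLET1+ cells at E14.5 and PLET1- cells at E14.5, each from embryos labelled wild type (control) and from Foxn1Cre RbpjFL/FL embryos (Rbpj cKO), which lack the transcriptional partner of all Notch receptors in cells where the Cre has acted. The seventh group holds 5 libraries of E14.5 PLET1+ cells from Foxn1Cre Rosa26FL-STOP-FL-NICD-IRES-EGFP embryos (NICD), in which the intracellular domain of Notch is made from the Rosa26 locus. The strain label was C57BL/6 for every group, and the Foxn1Cre of both mutants recombines only in cells that have expressed Foxn1, which are TECs and some skin epithelium. Per the study's methods, controls of the Rbpj cross were littermates of the cKO embryos, whereas the 5 NICD embryos came from a single litter that was bred and sorted at another institute and had no littermate controls in the table. NICD genotype, litter, sorting site and batch cannot be told apart in these data.

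Total counts on genes ranged from 20053241 to 92699969 per library, and the 5 NICD libraries, with 63587152 to 92699969 counts, were the deepest group. The mean Rbpj level was 24.3 CPM (counts scaled to library size with TMM factors) in E12.5 control and 9.25 CPM in E12.5 cKO libraries, and 19.7 and 5.81 CPM in E14.5 PLET1+ control and cKO libraries. Hes1, a direct Notch target, lay between 107 and 214 CPM in NICD libraries and between 33.3 and 49.6 CPM in E14.5 PLET1+ controls. All 8 TEC markers examined were at 1 CPM or more in every group. Mitochondrially encoded genes took 9.60 to 12.8% of the counts in NICD libraries, 4.50 to 9.54% in E14.5 PLET1+ controls and 6.80 to 14.6% in the 6 libraries of E12.5. No library duplicated another.

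Hspa1a and Hspa1b are intronless neighbours on mouse chromosome 17, and the DNA before their start sites is nearly the same. In the 250 bases upstream of each start (RefSeq promoter windows on GRCm38.p6, printed 5′ to 3′ on the minus strand, Hspa1a at chr17:34972157-34972406 and Hspa1b at chr17:34959239-34959488), the genes differed at 3 bases and were 98.8% identical. They are shown because these were the members with the widest spread between groups. Capitals mark a pair of inverted GAA units, GAANNTTC, which begins 104 bases before each start.
Hspa1a: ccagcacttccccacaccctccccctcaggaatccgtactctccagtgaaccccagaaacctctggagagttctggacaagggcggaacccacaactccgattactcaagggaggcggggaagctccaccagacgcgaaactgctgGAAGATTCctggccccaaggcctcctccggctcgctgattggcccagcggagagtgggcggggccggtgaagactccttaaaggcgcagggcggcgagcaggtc
Hspa1b: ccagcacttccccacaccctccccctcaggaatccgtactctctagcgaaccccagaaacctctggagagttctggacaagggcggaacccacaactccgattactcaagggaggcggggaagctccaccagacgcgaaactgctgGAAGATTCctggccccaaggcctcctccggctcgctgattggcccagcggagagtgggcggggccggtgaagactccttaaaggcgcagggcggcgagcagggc

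The binding sequence of heat-shock factors is a run of such units in alternating orientation. With 3 units (GAANNTTCNNGAA, either strand) it stood in 0.603% of 32851 RefSeq promoter windows, each reaching from 250 bases before to 50 bases after a start. Windows were at hand for 7 of the 10 members. The 3-unit form was found for Hspd1, Hspe1 and Hsph1, printed here with the units in capitals. Hspd1 and Hspe1 are transcribed away from each other, and the same stretch lies 89 bases before the Hspe1 start and 144 bases before an Hspd1 start, so it is printed once, on the strand of Hspe1 (chr1:55088053-55088082). The Hsph1 stretch (chr5:149636280-149636308, minus strand) begins 16 bases after a start of the gene. The Hspb1 stretches (chr5:135887791-135887820 and chr5:135887811-135887840, plus strand) each hold a 2-unit form, GAANNTTC or TTCNNGAA. Such a form was found in 15.056% of all windows. Counted by gene, it was found for 4587 of 27025 genes and for 6 of the 7 members with a window. Hspd1 and Hspe1 share the same stretch and are both counted. The windows of Dnajb1 held neither form. A match is a description of the letters and no evidence of binding.
Hspe1 and Hspd1: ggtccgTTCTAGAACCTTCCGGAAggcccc
Hsph1: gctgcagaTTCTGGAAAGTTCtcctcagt
Hspb1, upstream site: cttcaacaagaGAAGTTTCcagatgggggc
Hspb1, downstream site: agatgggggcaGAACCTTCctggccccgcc

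Levels of different genes were compared as CPM per kilobase of exon, with the length taken over all annotated exons of a gene. That length was 4301 bases for Hspa8 and 1474 for Hspe1, whose longest coding transcripts have 2394 and 774 bases. Levels per transcript length were not computed, and the order of genes with near levels depends on the length used. Over the 18 libraries without NICD the order of the means was Hsp90ab1 with 713, Hspa8 with 603, Hsp90aa1 with 406, Hspe1 with 339, Hspd1 with 111, Dnajb1 with 95.4, Hspb1 with 48.5, Hsph1 with 13.5, Hspa1a with 6.9 and Hspa1b with 2.0 CPM per kilobase. The constitutive HSP90 and HSP70 genes thus led, and the inducible HSP70 pair came last. In NICD libraries Hspa1b and Hspa1a stood at 190 and 176 CPM per kilobase, near Hspd1 with 165. Hsp90ab1, Hspa8, Hsp90aa1 and Hspe1 held the first 4 places as before. Sequence shared with other genes lowers some of these levels, because read pairs that map to several places were not counted. Of the 75-base stretches of the transcript, 68.6% of those of Hspa8, 61.7% of Hspa1a, 55.8% of Hspa1b, 53.1% of Hsp90aa1 and 47.3% of Hspb1 occurred in another annotated gene, against none for Hsph1 and Dnajb1. For Hspa1a the other gene was mostly Hspa1b, so read pairs from sequence that both share were left out. The levels of this pair rest on the sequence that differs and are uncertain.

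**Figure D1:**
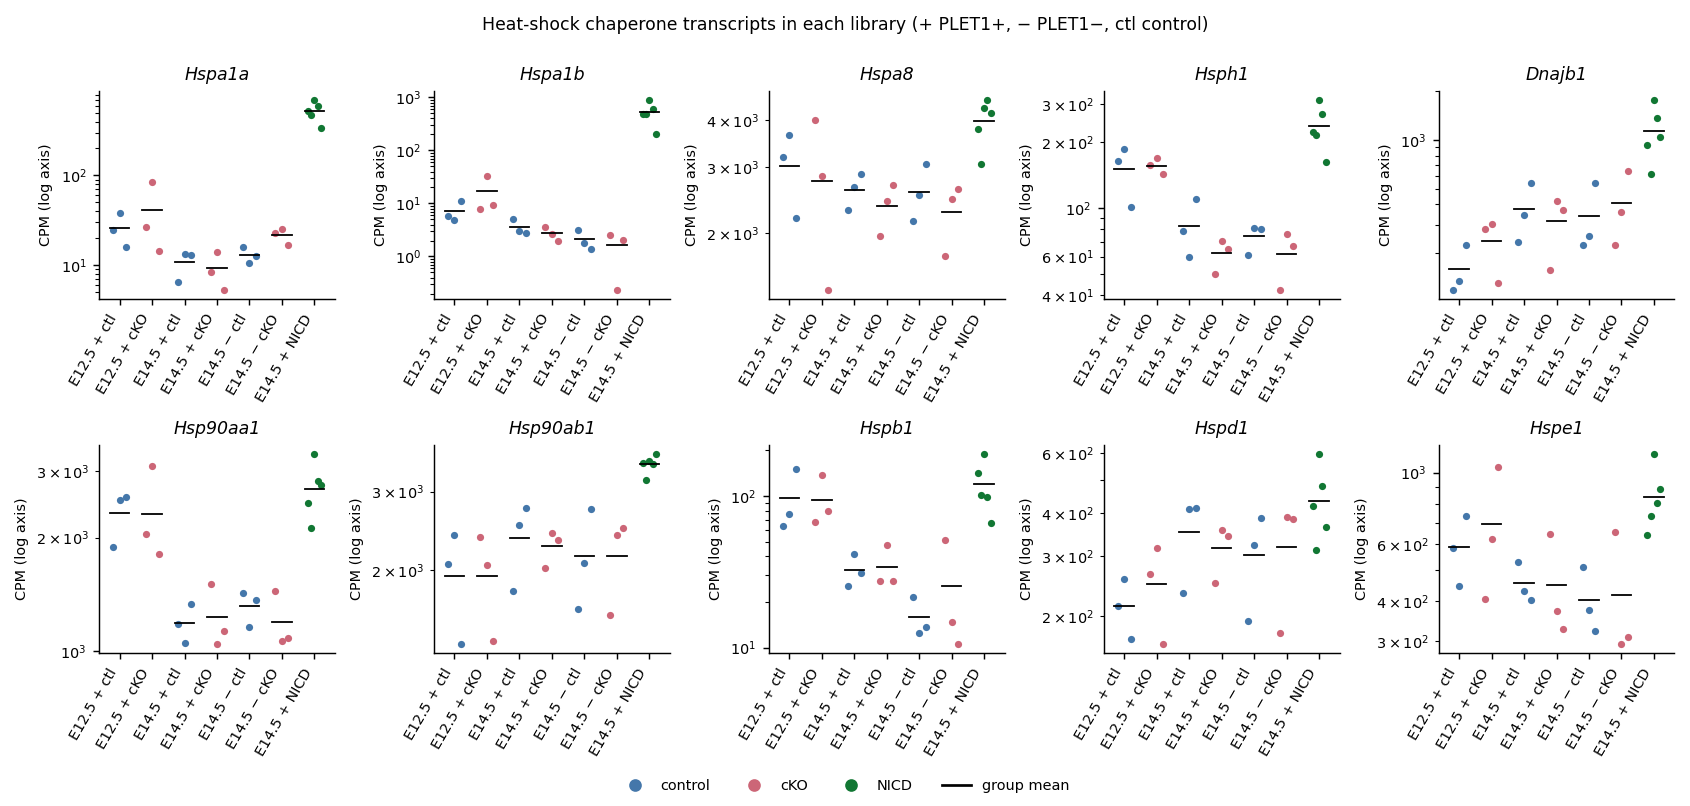
CPM of the 10 members in each of the 23 libraries, a panel a gene on a log axis, with points for libraries and a bar for the mean of each of the 7 groups. The NICD libraries stand apart from all 18 others for Hspa1a, Hspa1b and Hsp90ab1 and overlap with some other libraries for the remaining 7 members.

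Hspa1a and Hspa1b, the inducible HSP70 genes (chromosome 17, 34969190 to 34972156 and 34956436 to 34959238 on GRCm38), showed the widest spread. Hspa1a measured 521, 468, 693, 591 and 339 CPM in the 5 NICD libraries and 6.44, 13.2 and 13.1 CPM in the 3 E14.5 PLET1+ controls. Hspa1b measured 478, 477, 888, 612 and 206 CPM in NICD libraries and 5.13, 3.09 and 2.75 CPM in these controls. No NICD library came near the controls, and the ratio of the group means was 48.0 for Hspa1a and 146 for Hspa1b. At E12.5 the controls stood at 24.5, 37.9 and 16.1 CPM for Hspa1a and at 5.86, 4.89 and 11.1 CPM for Hspa1b. In the E12.5 cKO group they stood at 26.7, 83.9 and 14.2 CPM and at 7.78, 33.5 and 9.38 CPM. The second library of that group had the highest level of both genes outside NICD. The groups left were low. Hspa1a lay between 10.6 and 15.9 CPM in E14.5 PLET1- controls and between 5.31 and 14.1 CPM in E14.5 PLET1+ cKO libraries. In E14.5 PLET1- cKO libraries it lay higher, between 16.7 and 25.1 CPM. Hspa1b lay between 0.236 and 3.57 CPM in these 3 groups.

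Because these genes share much of their sequence, their counts were also added. Read pairs that map to both genes were not counted, so the sum does not recover them. The sum ranged from 545 to 1580 CPM in NICD libraries, with a median of 999, and its highest value in any other library was 117 CPM, in the second E12.5 cKO library. Fitted on the added counts, the log2 fold change of NICD was 6.16 against E14.5 PLET1+ controls and 4.96 against E12.5 controls. The share of the sum that fell on Hspa1b was 37.8 to 56.2% in NICD libraries and 0.931 to 44.3% in the others.

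Hspa8, the constitutive HSP70 gene (chromosome 9), measured 3782, 3059, 4301, 4514 and 4169 CPM in NICD libraries and 2297, 2656 and 2872 CPM in E14.5 PLET1+ controls. The groups did not overlap, but the E12.5 libraries reached into the NICD range: controls measured 3188, 3642 and 2186 CPM and cKO libraries 3986, 2831 and 1410.3 CPM. In the other 3 groups of E14.5 Hspa8 lay between 1736 and 3058 CPM.

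Hsph1, the HSP110 gene on chromosome 5, measured 223, 216, 312, 269 and 163 CPM in NICD libraries and 78.8, 59.9 and 110.2 CPM in E14.5 PLET1+ controls. At E12.5 it stood at 163, 186 and 101 CPM in controls and at 157, 169 and 143 CPM in cKO libraries, so that the lowest NICD library was level with E12.5. The remaining E14.5 groups ranged from 42.4 to 81.1 CPM.

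Dnajb1, the J-domain partner of Hspa1a on chromosome 8, measured 936, 614, 1763, 1371 and 1036 CPM in NICD libraries. The E14.5 PLET1+ controls stood at 234, 342 and 542 CPM and the E12.5 controls at 119, 135 and 225 CPM. All 5 NICD libraries lay above both control groups, and the lowest lay below the highest E14.5 PLET1- cKO library, which reached 642 CPM.

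Hsp90aa1, the stress-responsive cytosolic HSP90 gene (chromosome 12), measured 2467, 2115, 3324, 2821 and 2753 CPM in NICD libraries and 1185, 1055 and 1333 CPM in E14.5 PLET1+ controls. E12.5 controls, at 1889, 2521 and 2557 CPM, and E12.5 cKO libraries, at 2046, 3086 and 1807 CPM, overlapped with NICD. Hsp90ab1, its constitutive paralog (chromosome 17), measured 3472, 3181, 3516, 3462 and 3636 CPM in NICD libraries. The controls stood at 1803, 2532 and 2757 CPM at E14.5 and at 2066, 2396 and 1371 CPM at E12.5. Hsp90ab1 differed 1.14-fold between its highest and lowest NICD library and lay above all 18 other libraries in each NICD library.

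Hspb1, which encodes the small heat-shock protein HSP25 of mice (chromosome 5), measured 141, 102, 189, 97.8 and 66.8 CPM in NICD libraries and 25.5, 41.5 and 31.2 CPM in E14.5 PLET1+ controls. The E12.5 controls stood at 63.9, 75.8 and 150.2 CPM, of which the lowest lay just below the NICD range and the others within it. In E14.5 PLET1- controls it was lowest, at 21.5, 12.4996 and 13.6 CPM.

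Hspd1 and Hspe1 encode the ring and the lid of the mitochondrial chaperonin and lie head to head on chromosome 1. Hspd1 measured 421, 312, 597, 481 and 365 CPM in NICD libraries and 233, 412 and 416 CPM in E14.5 PLET1+ controls, and this was the member whose groups overlapped. Hspe1 measured 641, 736, 1140.1, 803 and 891 CPM in NICD libraries and 528, 428 and 404 CPM in these controls. The E12.5 controls stood at 214, 258 and 172 CPM for Hspd1, below all NICD libraries. For Hspe1 they stood at 586, 444 and 733 CPM, of which only the highest reached the NICD range. The E12.5 cKO libraries ranged from 166 to 316 CPM for Hspd1 and from 406 to 1043 CPM for Hspe1. For both genes the highest of them lay within the NICD range. Some exons of the pair overlap on opposite strands, and with counting that used no strand their reads cannot be told apart there.

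In all, every NICD library lay above every E14.5 PLET1+ control for 9 of the 10 members, with Hspd1 the exception, and over all genes tested this held for 5.22%. Above every E12.5 control lay 5 members (Hsp90ab1, Hspa1a, Hspa1b, Dnajb1 and Hspd1), with 5.63% of all genes, and above all 18 other libraries lay 3 members (Hsp90ab1, Hspa1a and Hspa1b), with 0.998% of all genes. The fitted log2 fold changes against E14.5 PLET1+ controls were 7.21 ± 0.87 (SE) for Hspa1b, 5.56 ± 0.51 for Hspa1a, 1.85 ± 0.49 for Hspb1, 1.69 ± 0.40 for Dnajb1 and 1.54 ± 0.27 for Hsph1. They were 1.18 ± 0.22 for Hsp90aa1, 0.89 ± 0.28 for Hspe1, 0.61 ± 0.18 for Hspa8, 0.56 ± 0.17 for Hsp90ab1 and 0.31 ± 0.28 for Hspd1. The median of the members was 1.36, against 0.04 over all genes tested, and since the choice of the members used this contrast nothing is read from it. Against E12.5 controls the median was 0.78, against 0.17 over all genes, and only Hspa1b (6.21 ± 0.83), Hspa1a (4.37 ± 0.48), Dnajb1 (2.84 ± 0.44) and Hspd1 (1.03 ± 0.29) exceeded 1 on the log2 scale.

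Other measures moved with the NICD group. The members took 1.03 to 1.497% of all counts in NICD libraries and 0.481 to 1.05% in the other 18. Summed markers of mesenchyme (8 genes, led by Lum) ranged from 23.2 to 426 CPM in NICD libraries and from 2.37 to 24.4 CPM in E14.5 PLET1+ controls, whose Pdgfrb was at 0. Twist1 of this list went the other way, with a fitted log2 fold change of -3.60 ± 2.18. In E14.5 PLET1- controls the same sum ranged from 5.59 to 1160.0 CPM. Summed haematopoietic markers (8 genes, led by Lck) ranged from 6.89 to 59.1 CPM in NICD libraries and from 17.7 to 24.8 CPM in E14.5 PLET1+ controls. Of these genes Cd3g and Rag1 were at 0 in all NICD libraries, and Ptprc, Cd3e, Rag1 and Laptm5 in all these controls. The part of these cells, of depth and of the mitochondrial share in the NICD levels was not tested. In bulk RNA a change in how many cells express a gene and a change in RNA per cell cannot be told apart.

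**Figure D2:**
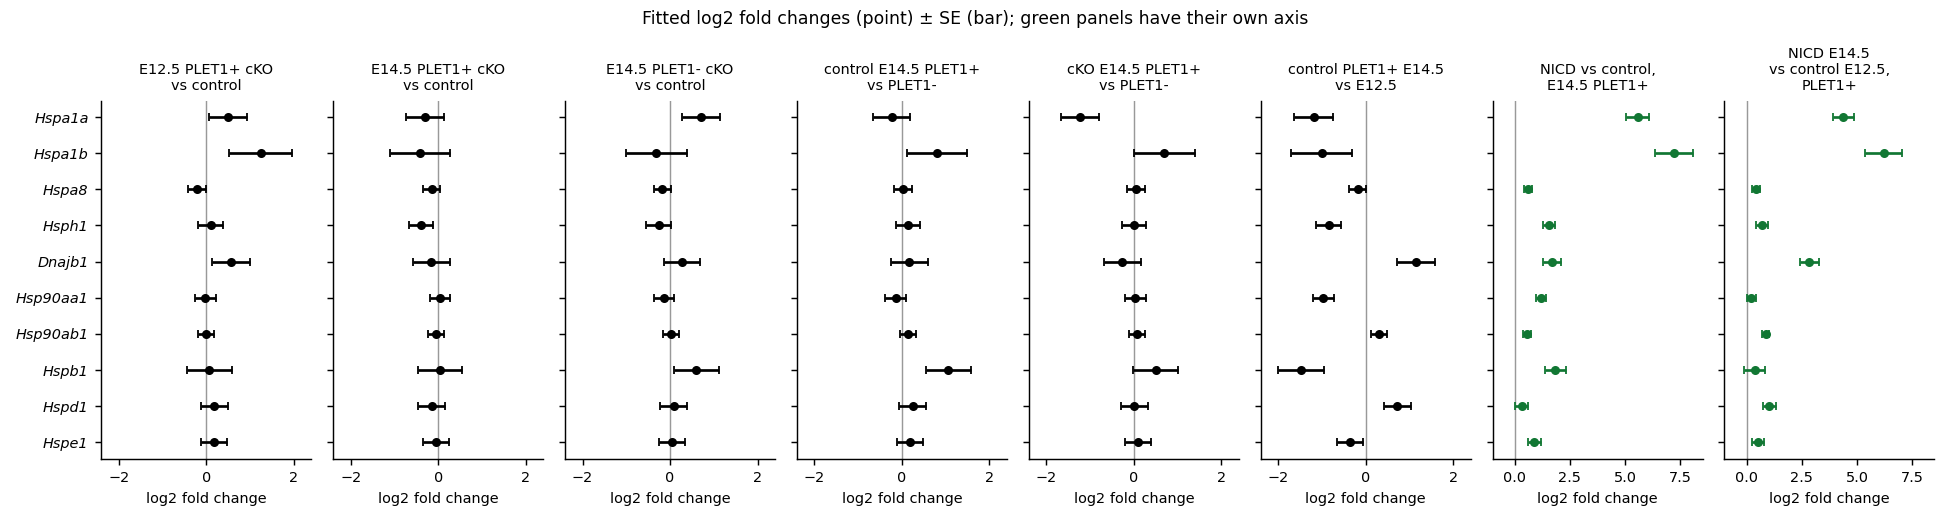
Fitted log2 fold changes of the 10 members with bars of 1 SE, a panel for each of 8 comparisons, those with NICD in green on a wider axis. In the comparisons with NICD every point lies right of 0, and in the other panels the points lie on both sides of 0.

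The comparisons that the choice did not use directly were tested. The choice set the NICD libraries against the others, so all of these comparisons still share libraries with it. It favours members that were low in the other libraries, the E14.5 PLET1+ controls among them. Changes over time in PLET1+ control cells, E14.5 against E12.5, were examined first. Of the 10 members 7 were lower at E14.5 and 3 higher, with a median log2 fold change of -0.60, against 0.19 over all genes tested. None passed an adjusted p of 0.05 in edgeR's quasi-likelihood test, where 0.967% of all genes did, and 6 had an unadjusted p under 0.05, against 12.9% of all genes. Hsp90aa1 was lower in all 3 E14.5 libraries than in any E12.5 control, by -0.97 ± 0.23 (SE, n = 3 each, edgeR adjusted p = 0.0591). Hsp90aa1 is named for this value, and its call depended on the tool: DESeq2 gave an adjusted p of 0.00293 and limma-voom one of 0.0187. The largest fitted changes were those of Hspb1 (-1.48 ± 0.52, edgeR adjusted p = 0.248) and Hspa1a (-1.19 ± 0.44, edgeR adjusted p = 0.271), and for both all 3 E14.5 libraries were below all 3 of E12.5. Such a separation downwards held for 3 members and for 8.82% of all genes. Dnajb1 was the member with all E14.5 libraries above those of E12.5 (1.15 ± 0.43), as were 11.5% of all genes. The ages share no batch, so age and batch cannot be told apart, and the E12.5 controls also held more parathyroid RNA (summed Gcm2, Pth, Casr and Chga 1399 to 9086 CPM, against 2.11 to 400.1 CPM at E14.5), whose part in these differences was not tested.

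Loss of Rbpj at E12.5 was compared next. None of the members was called by edgeR in cKO against control PLET1+ cells, where 0.0261% of all genes were, and none had an unadjusted p under 0.05, against 3.79% of all genes. The largest changes were those of Hspa1b (1.24 ± 0.73, n = 3 each, edgeR adjusted p = 1) and Dnajb1 (0.56 ± 0.44). Dnajb1 stood at 281, 302 and 131 CPM in cKO and 119, 135 and 225 CPM in control libraries, and both ranges overlapped. The members' median was 0.13, with 8 of 10 higher, but with libraries scaled on housekeeping genes only 3 of 10 were higher, so no direction is given. Without the second cKO library, which held the most Hspa1a and Hspa1b, the Hspa1b difference was 0.17.

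At E14.5 the same comparison was made in PLET1+ cells. The log2 fold changes ranged from -0.42 ± 0.69 for Hspa1b through -0.39 ± 0.28 for Hsph1 to 0.05 ± 0.23 for Hsp90aa1, with a median of -0.15. None was called by edgeR, as was 0% of all genes, and none had an unadjusted p under 0.05, against 2.06% of all genes. DESeq2 and limma-voom called none of the members either. The abundant members gave the smallest errors, and Hsp90ab1 differed by -0.05 ± 0.18 and Hspa8 by -0.15 ± 0.20 on the log2 scale.

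In PLET1- cells at E14.5 none of the members was called in cKO against control, as was 0% of all genes, and none had an unadjusted p under 0.05, against 2.34% of all genes. Hspa1a measured 22.7, 25.1 and 16.7 CPM in cKO and 15.9, 10.6 and 12.502 CPM in control libraries. All 3 cKO libraries lay above the controls (0.71 ± 0.43, n = 3 each, edgeR adjusted p = 1), a separation shown by 1 of the 10 members and by 2.62% of all genes. Hspb1 had a fitted change of 0.59 ± 0.52, which rested on the first cKO library with 51.3 CPM beside 14.9 and 10.6 CPM in the other two. Without that library the change was -0.25.

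PLET1+ and PLET1- cells of E14.5 were compared within genotype. In controls none of the members was called, as was 0% of all genes, and none had an unadjusted p under 0.05, against 2.87% of all genes. Hspb1 was higher in all 3 PLET1+ libraries (1.06 ± 0.51, n = 3 each, edgeR adjusted p = 1), with 25.5, 41.5 and 31.2 CPM against 21.5, 12.4996 and 13.6 CPM, a separation shown by 1 of the 10 members and by 5.03% of all genes. Hspa1b followed with 0.80 ± 0.69. In cKO embryos none of the members was called, as was 0% of all genes, and 1 had an unadjusted p under 0.05, against 2.31% of all genes. This was Hspa1a, which was lower in all 3 PLET1+ libraries, with 8.3, 14.1 and 5.31 CPM against 22.7, 25.1 and 16.7 CPM (-1.24 ± 0.43, n = 3 each, edgeR adjusted p = 1). That separation downwards was shown by 1 of the 10 members and by 3.49% of all genes. Hspa1b differed by 0.70 ± 0.70.

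Whether the cKO effect differed between cell types or ages was tested as an interaction. For PLET1+ minus PLET1- cells of E14.5 the members' median was -0.12 and the largest terms were those of Hspa1a (-1.002 ± 0.61) and Hspb1 (-0.56 ± 0.72). For E14.5 minus E12.5 in PLET1+ cells the median was -0.27 and the largest terms were those of Hspa1b (-1.66 ± 0.999) and Hspa1a (-0.79 ± 0.61). None of the members was called in either, as was 0% of all genes, and none had an unadjusted p under 0.05, against 2.62% and 3.15% of all genes.

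**Figure D3:**
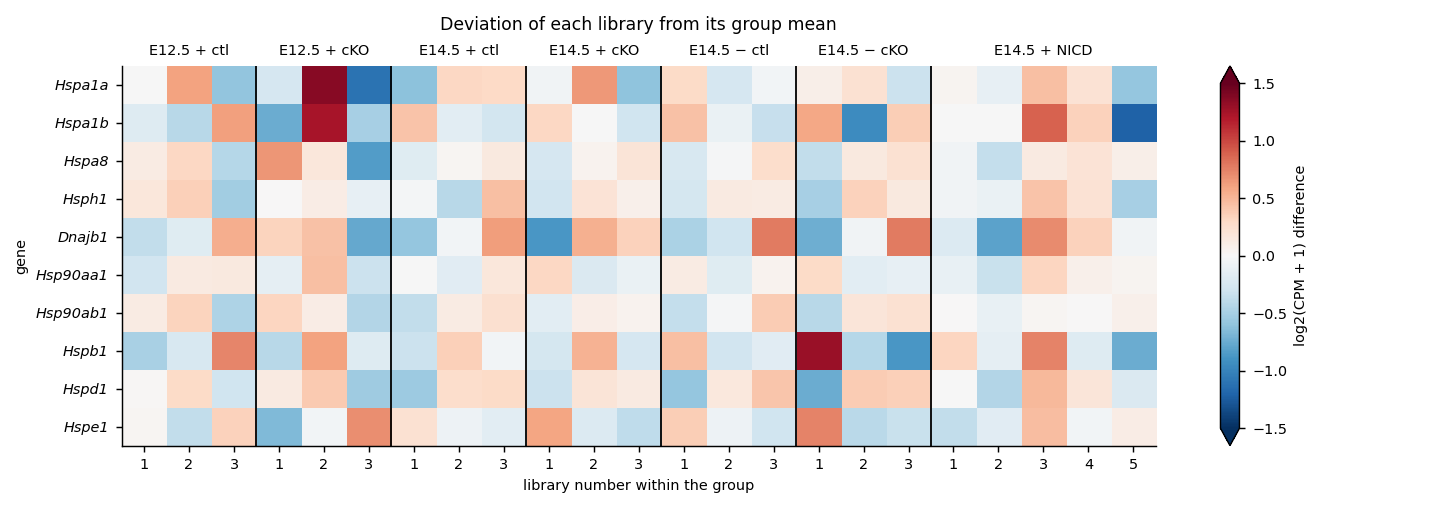
Log2 deviation of each member from its group mean in every library, as a colour map with members in rows and libraries in columns. The first libraries of the 4 E14.5 groups of the Rbpj cross share a pattern, with Dnajb1, Hspd1, Hsp90ab1 and Hspa8 below and Hspe1 and Hspa1b above the group mean.

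Libraries of one group differed among themselves in a repeated way. In all 4 groups of E14.5 from the Rbpj cross, the library numbered 1 had the lowest level of Hsp90ab1, Hspa8, Dnajb1 and Hspd1 and the highest of Hspe1 and Hspa1b. Its mean log2 deviation from the group mean was -0.67 for Dnajb1, -0.55 for Hspd1, -0.32 for Hsp90ab1 and -0.26 for Hspa8, and 0.48 for Hspe1 and 0.44 for Hspa1b. These 4 libraries also had 7.80 to 9.54% of their counts on mitochondrially encoded genes and 16229 to 17220 genes with a count, against 4.21 to 5.36% and 18059 to 20350 genes in the 8 libraries numbered 2 and 3. The part of these measures in the levels of the members was not tested. No member was called in any comparison among these groups with or without the 4 libraries.

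**Figure D4:**
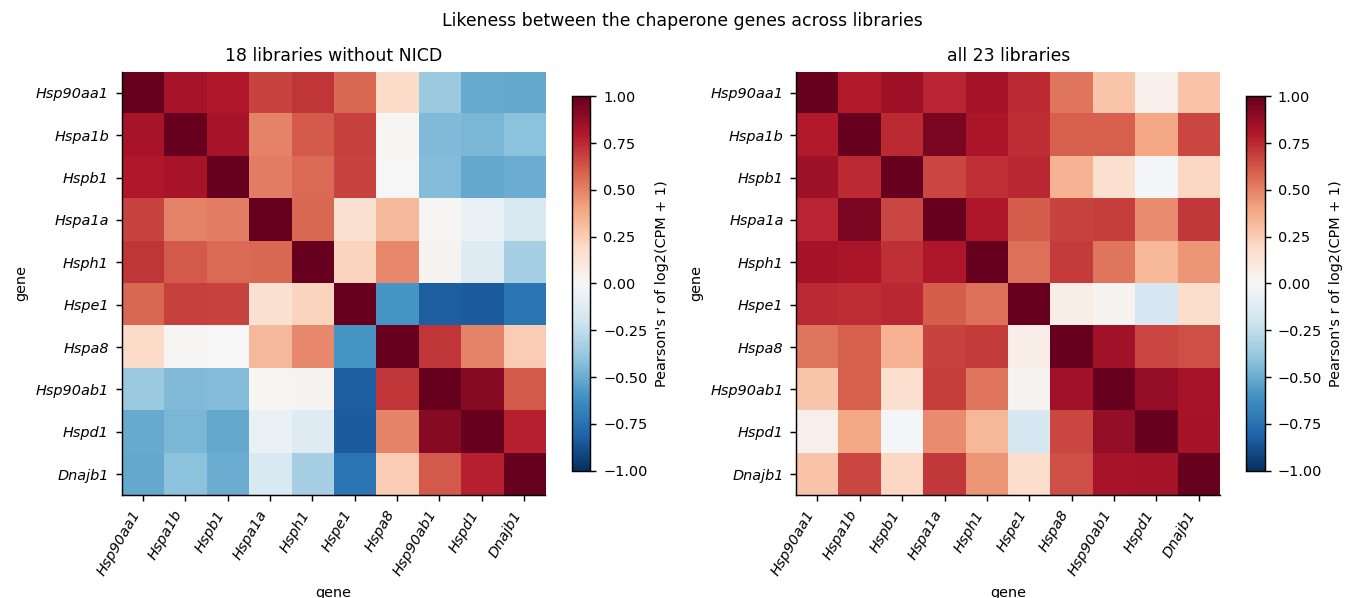
Pearson correlation of log2(CPM + 1) between each pair of members, as colour maps over the 18 libraries without NICD (left) and over all 23 (right). On the left Hsp90aa1, Hspa1a, Hspa1b, Hsph1 and Hspb1 correlate positively with one another, and Hsp90ab1, Hspd1 and Dnajb1 form another such set.

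The members did not all vary together across the libraries without NICD. Over these 18 libraries, which share depth and group differences, Pearson's r was above 0 for 28 of 45 pairs, with a median of 0.19, and ranged from -0.83 for Hspd1 and Hspe1 to 0.91 for Hsp90ab1 and Hspd1. Over all 23 libraries, where the NICD group that chose the members adds to each r, it was above 0 for 43 of 45 pairs. The correlation with the mean of the members was highest for Hsp90aa1 (0.84), Hspa1b (0.83), Hspb1 (0.80), Hsph1 (0.79) and Hspa1a (0.78). It was below 0 for Dnajb1 (-0.17), Hspd1 (-0.10) and Hsp90ab1 (-0.02). Each member is itself part of that mean, which raises its r, most for the members that vary most. These r include the differences between groups, age among them. Over deviations from the group means r was -0.23 for Hsp90aa1 and Hsph1, which was 0.72 before. For Hsph1 and Hspb1 it was -0.58, which was 0.57 before. It stayed at 0.91 for Hsp90ab1 and Hspd1 and was -0.86 for Hspd1 and Hspe1. The shared pattern of the E14.5 libraries numbered 1 enters these r. Without these libraries and NICD, r of the last 2 pairs was 0.88 and -0.84, with group differences included. Deviations were not correlated without them. Of 19127 other genes, those most like the mean of the members over the 18 libraries were Dchs1 (r = 0.89), Psme4 (0.85), Greb1 (0.85), Irx2 (0.85) and Zbtb10 (0.83). Of these Psme4, a proteasome activator, and Zbtb10 had a mean of 90.9 and 48.5 CPM, and the other 3 had under 2 CPM and libraries at 0.

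Other genes of the chaperone network were counted from lists set by gene function. Of the 7 other HSP70 and HSP110 genes 4 were higher in NICD libraries than in E14.5 PLET1+ controls, with a median log2 fold change of 0.08. Here 0.684% of all genes were called by edgeR, and in this list it was Hspa12a, an atypical HSP70 gene with no count in any NICD library. Controls held 0.327 to 6.76 CPM of it. Their mean of 3.32 CPM was 78.9-fold above a level of 3 counts per NICD library (0.0421 CPM). The lowest control lay much nearer to that level, so the ratio is no lower bound on the difference. Of 16 J-domain proteins and HSP70 exchange factors 12 were higher, with a median of 0.48, and Stub1, the ubiquitin ligase that acts on chaperone clients, was called lower (-1.60 ± 0.29, edgeR adjusted p = 0.0139). Of 11 HSP90 co-chaperones 6 were higher and none was called, with a median of 0.00 and 0.71 ± 0.54 for Ptges3 and 0.46 ± 0.30 for Ppid, the most abundant. Chosen after their values were seen, Stip1, the adaptor between HSP70 and HSP90, stood at -1.10 ± 0.28, Cdc37, which brings kinases to HSP90, at -1.09 ± 0.55 and the phosphatase gene Ppp5c at -2.29 ± 0.66. On the higher side, chosen likewise, Fkbp5 stood at 1.06 ± 0.55 and Sugt1 at 0.84 ± 0.31. Of 4 other small heat-shock genes tested 2 were higher and none was called (Cryab 2.51 ± 0.99, Hspb8 -0.86 ± 0.53). Of 4 genes tested of heat-shock factors and their binding protein 3 were higher and none was called (Hsf2 1.42 ± 0.66, Hsbp1 0.56 ± 0.32). The remaining gene, named after its value was seen, was Hsf1, the main heat-shock factor (-1.09 ± 0.53). This is an RNA level, and the activity of the HSF1 protein was not measured.

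Chaperones of other compartments gave a mixed picture. The cytosolic chaperonin and prefoldin genes were higher in 7 of 14 cases with a median of 0.06 (Cct8 -0.23 ± 0.15, Cct5 0.13 ± 0.21), and the other mitochondrial chaperones and proteases in 4 of 10 with a median of -0.16 (Hspa9 -0.70 ± 0.33, Grpel1 0.12 ± 0.23), with none called in either. Of 18 genes of the endoplasmic reticulum 10 were higher, with a median of 0.08. Hsp90b1, the HSP90 of that compartment, was called higher (0.80 ± 0.16, edgeR adjusted p = 0.0281) and Xbp1, a transcription factor of the unfolded protein response, lower (-1.64 ± 0.31, edgeR adjusted p = 0.022). Of 16 immediate early genes tested, which cells switch on shortly after a stimulus, 2 were higher and the median was -0.94. Fosb was called lower (-2.82 ± 0.40, edgeR adjusted p = 0.00173), and so was Klf2, which had no count in any NICD library. Controls held 1.31 to 4.07 CPM of Klf2. Their mean of 2.77 CPM was 65.9-fold above a level of 3 counts per NICD library, which is no lower bound on the difference. The calls of Stub1 and Xbp1 were lost when any of the 3 controls was left out (edgeR adjusted p up to 0.108 and 0.121), and that of Hsp90b1 also without the third or the fifth NICD library (up to 0.139), whereas those of Hspa12a, Fosb and Klf2 held without any single library. All 6 calls were lost when only the groups compared were fitted (edgeR adjusted p 0.0522 for Hsp90b1 to 0.0900 for Hspa12a). The lists were not compared with the members by a test.

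**Figure D5:**
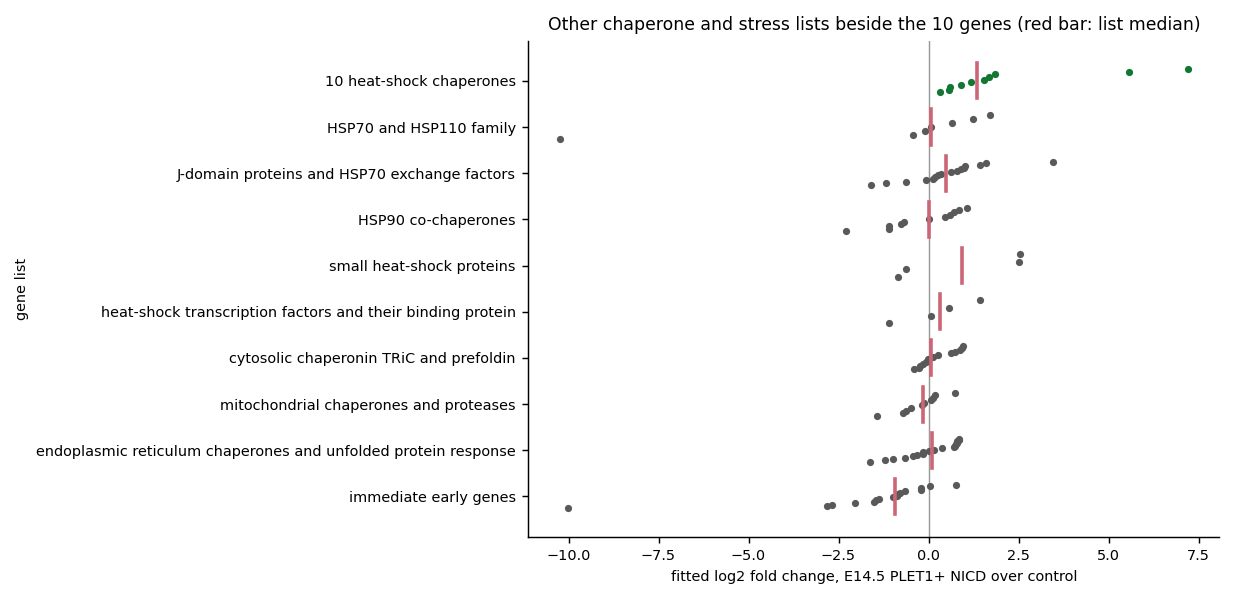
Fitted log2 fold change of NICD against control E14.5 PLET1+ cells for each gene of the member list and of 9 other lists, with a red bar at each list's median. The member median is 1.36 and the medians of the other lists lie between -0.94 and 0.94; Hspa12a and Klf2, far to the left, had no count in any NICD library, so their fitted values are not measured sizes.

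Against E12.5 controls, with 2.81% of all genes called, 5 of the 18 endoplasmic reticulum genes were called higher in NICD libraries and 1 lower. Parathyroid markers, summed as above, stood at 1399 to 9086 CPM in these controls and at 0.273 to 10.1 CPM in NICD libraries, with 2 of the 4 genes called lower, and their part in these differences was not tested. Hsp90b1 (1.17 ± 0.17, edgeR adjusted p = 0.000514) kept its call without any single library and lost it when only the groups compared were fitted (edgeR adjusted p = 0.0971). Hspa5, the HSP70 of that compartment, was called (1.18 ± 0.24) but lost its call without the third E12.5 control (edgeR adjusted p = 0.128), and Ddit3, a gene of its stress response (-1.79 ± 0.37), lost its call without that library (-1.33, edgeR adjusted p = 0.156) or without the second. Pdia4 (1.32 ± 0.30) and Calr (0.89 ± 0.21), further folding factors, lost their calls without 4 and 7 of the 23 libraries, taken singly, among them each of the 3 E12.5 controls (edgeR adjusted p up to 0.104 and 0.136). Of genes outside that compartment, Dnajb4 (-1.88 ± 0.28) and Fosb (-3.09 ± 0.40) were called lower with any single library left out, as were Hspa12a and Klf2 with no count in NICD libraries. Fkbp5 (2.52 ± 0.60), Cryab (6.08 ± 1.25) and Socs3 (4.54 ± 1.17) were called higher. Their calls were lost without the second or the third E12.5 control for Fkbp5 (edgeR adjusted p up to 0.155), without any of these controls for Cryab (up to 0.136) and without 16 of the 23 libraries, taken singly, for Socs3 (up to 0.190).

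From E12.5 to E14.5 in PLET1+ controls 4 genes of these lists were called higher: Xbp1 (1.93 ± 0.37, edgeR adjusted p = 0.014), Calr (1.03 ± 0.23, edgeR adjusted p = 0.0411), Zfp36 (3.01 ± 0.64, edgeR adjusted p = 0.0263) and Ier3 (5.32 ± 1.17, edgeR adjusted p = 0.0339). Each lost its call when single libraries were left out (4 for Xbp1, 14 for Calr, 4 for Zfp36 and 9 for Ier3), among them the first E12.5 control for all 4 genes, with adjusted p up to 0.0785, 0.254, 0.178 and 0.113 in that order. In the comparisons of cKO with control and of PLET1+ with PLET1- cells none of the list genes was called by edgeR.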

How the data were processed

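RNA-seq libraries were made with Smart-seq2, which has no molecular identifiers, from 100 sorted cells each and sequenced as 75 bp paired ends. The authors trimmed reads with Trimmomatic 0.32, aligned them to GRCm38 with STAR 2.5.1a and deposited raw counts of read pairs per gene, without a strand setting and without pairs that map to several places. The file header names featureCounts v1.5.0-p3 with GENCODE vM12, and the submitters' processing notes list featureCounts 1.5.1.

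The deposited counts were fitted with edgeR 4.0.16 in R 4.3.3 (TMM factors, filterByExpr on the 7 groups, glmQLFit and glmQLFTest, two-sided), with all 23 libraries in a single fit of 7 group means and batch terms within E12.5 and within the E14.5 Rbpj cross. Adjusted p values are Benjamini-Hochberg over the 19140 genes tested, called at 0.05. CPM are TMM-scaled, and errors of fold changes are standard errors from the F statistic. With 3 libraries in most groups, p values measure the spread between libraries, and depth covers counting error only. The fit was tested on simulated data with planted changes larger than any of the members in the tested comparisons. It therefore does not measure the power for changes of their size. DESeq2 1.42.0, limma 3.58.1 (voom), RLE factors, scaling on housekeeping genes, no filter, a replicate block and leaving out libraries were tried as alternatives.

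The members and lists were chosen with earlier results of these data known. Values are given for every member, fold changes for the 2 members with the largest change in each tested comparison, and up to 5 genes of each list (those called, otherwise the 2 most abundant). Genes said to be chosen or named after their values were seen fall outside this rule. Libraries sharing a number in the E14.5 Rbpj cross deviated together (r of deviations over 8467 genes 0.26 to 0.56 for every pair), so the numbers pair these libraries. This pairing comes from the data. The labels put numbers 1 and 2 in the same batch and number 3 in another. At E12.5 and between ages the r lay between -0.10 and 0.05. Promoter sequences are from RefSeq on GRCm38.p6.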

Additional observations from a re-analysis of the deposited data

Results flagged for a closer look

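The share of counts on mitochondrially encoded genes in the second NICD library was 12.8%, against 9.60 to 10.01% in the other 4 NICD libraries, which put that library apart from its group by Dixon's test. Chance flags some groups in this way, and the members' own values were tested in the same group without a flag. Of the 5 NICD libraries it had the lowest Hsp90aa1 (2115 CPM), Hsp90ab1 (3181 CPM), Hspa8 (3059 CPM), Dnajb1 (614 CPM) and Hspd1 (312 CPM), and the members took 1.03% of its counts. Hspa1a and Hspa1b, at 468 and 477 CPM, were within the range of the other NICD libraries. The part of the mitochondrial share in these levels was not tested.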

How the results depend on the processing

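No member was called in cKO against control, in PLET1+ against PLET1- cells or in either interaction under any alternative. Between E14.5 and E12.5 controls, where edgeR called 0 of the 10 members, DESeq2, limma-voom and the fit with the replicate block called 1 each, Hsp90aa1 in every case (with the block -0.96, adjusted p 0.00847), and the fit without a filter called 2 (Hsp90aa1 and Dnajb1). Leaving out single libraries gave 0 to 1: Hsp90aa1 was called without the second E12.5 cKO library (adjusted p 0.0309) or the first E14.5 PLET1+ cKO library (0.0395). The replicate block changed no other call of a member. Calls over all genes differed by tool, from 55 to 1284 between ages (185 in edgeR) and from 40 to 1236 for NICD against E14.5 PLET1+ controls (131 in edgeR). Fitted on only the groups compared, the calls of Hspa12a, Stub1, Hsp90b1, Xbp1, Fosb and Klf2 for NICD against these controls were all lost.

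Scaling on housekeeping genes moved the members' NICD median from 1.36 to 1.78, with all 10 still higher, and that against E12.5 controls from 0.78 to 1.05, and without single libraries the first lay between 1.25 and 1.55. It also turned the split of genes called for NICD from 51 higher of 131 to 325 of 413, with a shift of 0.37 on the log2 scale. In cKO cells PLET1+ was above PLET1- for 8 of 10 members, and for 2 under this scaling. Hspb1 reversed in PLET1- cKO against control without the first E14.5 cKO library (-0.25, range over libraries left out -0.25 to 0.97), and in the interaction of PLET1+ with PLET1- (0.33, range -0.92 to 0.33). With all 4 libraries numbered 1 of the E14.5 Rbpj cross left out, a setting chosen after seeing the data, these values were -0.089 and 0.14. The cause was not tested beyond these settings. Hspa1b had as few as 10 counts in a library, and such low counts limit what could be detected.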
